A study of Mus musculus with 3 samples.

Results

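A set of 9 genes of the Hedgehog pathway were followed in mouse skin after cyclophosphamide: the ligand Shh, its receptor Ptch1, the co-receptor Gas1, the ligand-binding inhibitor Hhip, the signal transducer Smo, the transcription factors Gli1, Gli2 and Gli3, and Sufu, which holds the Gli factors back. They were chosen by gene symbol, as the UniGene clusters whose tags match reference transcripts of these genes, and are 9 of 14576 genes that could be named in the tables. All 9 were listed in all 3 libraries. Their tags fall into 11 clusters, of which 9, 1 per gene, held enough tags for a test.

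Hedgehog signalling starts when the secreted ligand binds Ptch1 and thereby lifts the block that Ptch1 keeps on Smo. Active Smo, in the primary cilium, frees the Gli factors from Sufu and from cutting into repressors, and the Gli factors then switch on target genes, among them Gli1, Ptch1 and Hhip themselves. In the growing hair follicle Shh is made by epithelial cells of the hair matrix, and both the neighbouring epithelium and the dermal papilla respond to it.

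Whole skin of male C57BL/6 mice aged 2 months was taken untreated (day 0), 1 day or 2 days after an injection of cyclophosphamide into the peritoneum. Cyclophosphamide is an alkylating anticancer drug, given at 150 mg/kg per the series design text (the labels write mg/km), and all mice had been depilated 9 days before the drug to start hair growth. Each group was 1 library, and the sources used here do not say how many mice were pooled or used for it. No untreated skin of the later days was profiled, so the drug and the extra days of hair growth cannot be told apart.

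RNA was counted by digital gene expression, in which NlaIII cuts each cDNA at CATG and a 21-base tag is read from that cut. A transcript should give 1 tag, at the CATG nearest its 3′ end, whatever its length, and incomplete cutting gives tags at sites further upstream. Tags assigned to clusters numbered 2731787 at day 0, 2859653 at day 1 and 2636804 at day 2. Levels are tags per 1000000 (CPM), scaled by edgeR's TMM (trimmed mean of M values), with exact 95% Poisson intervals. Calls of higher or lower needed a change of at least 2-fold (1 on the log2 scale) and an adjusted p no greater than 0.001, from an exact binomial test on the tags of both libraries with Benjamini-Hochberg adjustment over 13812 clusters. The test compares libraries and not conditions, since no group has a replicate. All intervals cover counting error only, and reads that PCR copied from 1 molecule were not set apart.

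The tags below carry most of the signal of the 9 genes and show which end of each transcript was counted. Capitals mark the CATG cut site. Positions are from an exact match to GENCODE M21 transcripts on GRCm38, and every tag lies in the 3′ UTR of the last exon, on the strand of its gene.
Shh, site 1, chr5:28457102-28457122, minus strand, exon 3 of 3: CATGttcttggaaaccaagac
Hhip, site 1, chr8:79965867-79965887, minus strand, exon 13 of 13: CATGatcaaatgtattaaact
Ptch1, site 1, chr13:63508339-63508359, minus strand, exon 22 of 22: CATGaataaagataatataac
Gas1, site 1, chr13:60174710-60174730, minus strand, exon 1 of 1: CATGaggaatccactcctgca
Gas1, site 2, chr13:60175052-60175072, minus strand, exon 1 of 1: CATGttttttatcctaaagct
Smo, site 1, chr6:29761078-29761098, plus strand, exon 12 of 12: CATGttatttcttcctcacat
Gli1, site 1, chr10:127329983-127330003, minus strand, exon 13 of 13: CATGaggtgcccagggatggg
Gli2, site 1, chr1:118834166-118834186, minus strand, exon 14 of 14: CATGctcaacttgtaaataag
Gli3, site 8, chr13:15728867-15728887, plus strand, exon 15 of 15: CATGttagcggtccctcctag
Sufu, site 1, chr19:46488526-46488546, plus strand, exon 12 of 12: CATGatcttggtgccaggcga

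Sites are numbered from the 3′ end as in the deposited tables. Site 1 held 78.3% (Ptch1) to 98.6% (Gli1) of a gene's tags over the 3 days in 8 of the 9 genes. Gli3 had no tag at site 1: its tags came from site 8 (62.0%), site 17 in the coding sequence (31.0%) and site 16 (7.04%). Each of the listed tags matched 1 gene only.

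Shh and Hhip were lower at both days after the drug than in untreated skin, and Gas1 was higher at day 2. The other 6 genes passed the full threshold in none of the 3 comparisons. At day 1, 0 of the 9 genes were called higher and 2 lower, where 1.43% of all clusters tested were called higher and 1.38% lower. At day 2 against day 0, 1 was higher and 2 lower, against 3.42% and 3.03% of all clusters. Between days 2 and 1, 0 were called in either direction, against 1.82% higher and 1.09% lower. The median log2 ratio of the 9 genes was -0.23, -0.71 and 0.19 in these comparisons, and that of all clusters -0.02, 0.01 and -0.01. Both comparisons with untreated skin share the day 0 library.

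**Figure D1:**
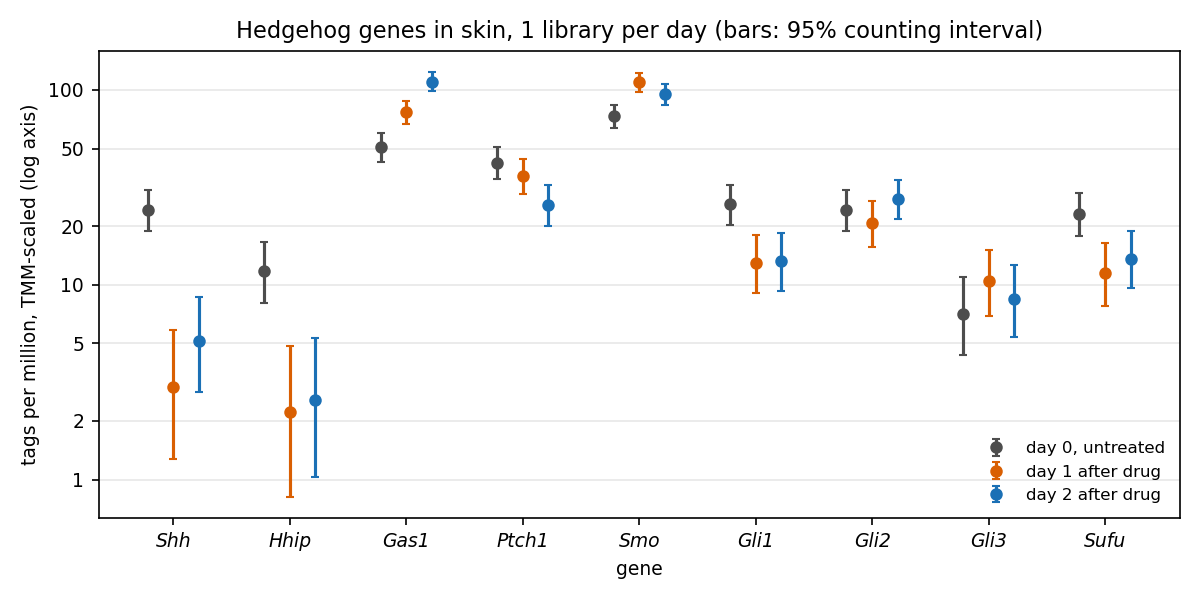
Level of each of the 9 genes in tags per 1000000 (log axis) in the day 0, day 1 and day 2 libraries. Points are single libraries and bars are 95% counting intervals. The treated libraries of Shh (2.97 and 5.15) and Hhip (2.23 and 2.57) lie below the day 0 interval, and Gas1 at day 2 (110.3) lies above those of both other days.

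Shh was counted with 68 tags at day 0, 8 at day 1 and 14 at day 2, or 24.2, 2.97 and 5.15 CPM. Its untreated level stood apart from both later ones, with an interval of 18.8 to 30.7 CPM against 1.28 to 5.85 and 2.82 to 8.64. The log2 ratio was -2.95 (-4.29 to -1.97) at day 1, with an adjusted p of 6.1e-11 by the exact test. At day 2 it was -2.19 (-3.18 to -1.39), with an adjusted p of 4.3e-08. The intervals of days 1 and 2 overlapped, and the ratio between those days was 0.76 (-0.56 to 2.25). Nearly all copies came from site 1, with 66, 8 and 12 copies, and the tag at site 4 in the coding sequence was read 2 times at day 0 and 2 at day 2. In whole skin, fewer Shh-producing cells and less Shh RNA per cell cannot be told apart, and the same holds for each gene here.

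Hhip, a membrane protein that binds Hedgehog ligands and takes them away from Ptch1, was counted with 33, 6 and 7 tags (11.7, 2.23 and 2.57 CPM). As for Shh, the untreated library was high and both treated libraries were low. The log2 ratio was -2.31 (-3.94 to -1.12) at day 1, with an adjusted p of 0.00027 by the exact test. At day 2 it was -2.11 (-3.61 to -0.99), with an adjusted p of 0.00048. Site 1 held 26, 6 and 5 copies. The remaining day 0 copies were 7 tags at sites 3, 33 and 45, none of which was listed after the drug, and a tag at site 46 appeared at day 2 with 2 copies. Since no tag is listed below 2 copies, a single copy at any of these sites would not show. With site 1 alone, Hhip no longer passed the test: its ratios were -1.97 (adjusted p = 0.0055) and -2.24 (adjusted p = 0.0015).

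Ptch1, the receptor and itself a Hedgehog target, was counted with 119, 97 and 70 tags (42.3, 36.0 and 25.7 CPM). The levels went down from day to day, with overlapping intervals between neighbouring days, while that of day 2 (20.1 to 32.5) lay below that of day 0 (35.1 to 50.6). The log2 ratio was -0.23 (-0.63 to 0.17) at day 1 and -0.71 (-1.16 to -0.28) at day 2, under 2-fold, with an adjusted p of 0.51 and of 0.0055 by the exact test. Relative to its receptor, the ligand went from 57.1 Shh tags per 100 Ptch1 tags at day 0 to 8.25 at day 1 and 20 at day 2, a quotient that no scaling of the libraries can alter. For Hhip the same quotient was 27.7, 6.19 and 10.

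Ptch1 tags were spread over 9 sites, more than for any other of the 9 genes. Site 1 held 87, 79 and 58 copies and site 5, also in the 3′ UTR, 17, 6 and 8. Site 1 had a log2 ratio of -0.08 (-0.54 to 0.38) at day 1, and site 5 one of -1.37 (-3.07 to -0.03), so the interval of site 5 left out 0 and that of site 1 did not. These intervals overlap, and the difference between sites was not tested. Ptch1 also held 3 tags, with 11 copies in all, that match no reference transcript exactly.

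Gas1, a surface protein that binds Shh and promotes its signal together with Ptch1, was counted with 143, 207 and 300 tags (50.8, 76.8 and 110.3 CPM). The 3 intervals did not overlap, with untreated skin lowest and day 2 highest. Gas1 rose by 1.12 on the log2 scale (0.83 to 1.42) at day 2 against day 0, with an adjusted p of 1.2e-13 by the exact test. Its day 1 ratio of 0.59 (0.28 to 0.91) and its ratio of 0.52 (0.26 to 0.78) between days 2 and 1 were under 2-fold, with an adjusted p of 0.0014 and of 0.00069.

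Gas1 has a single exon, and its tags came mainly from sites 1, 2 and 4. Site 1 held 124, 152 and 238 copies, site 2 held 12, 36 and 46, and site 4 held 7, 17 and 16. The share of Gas1 tags at site 1 was thus 86.7%, 73.4% and 79.3%. The log2 ratio at day 2 was 0.99 (0.67 to 1.31) at site 1 and 1.94 (1.05 to 3.04) at site 2, with overlapping intervals. Because site 1 alone stayed just under 2-fold, Gas1 was not called with tags of that site only (0.97). The difference between sites was not tested.

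**Figure D2:**
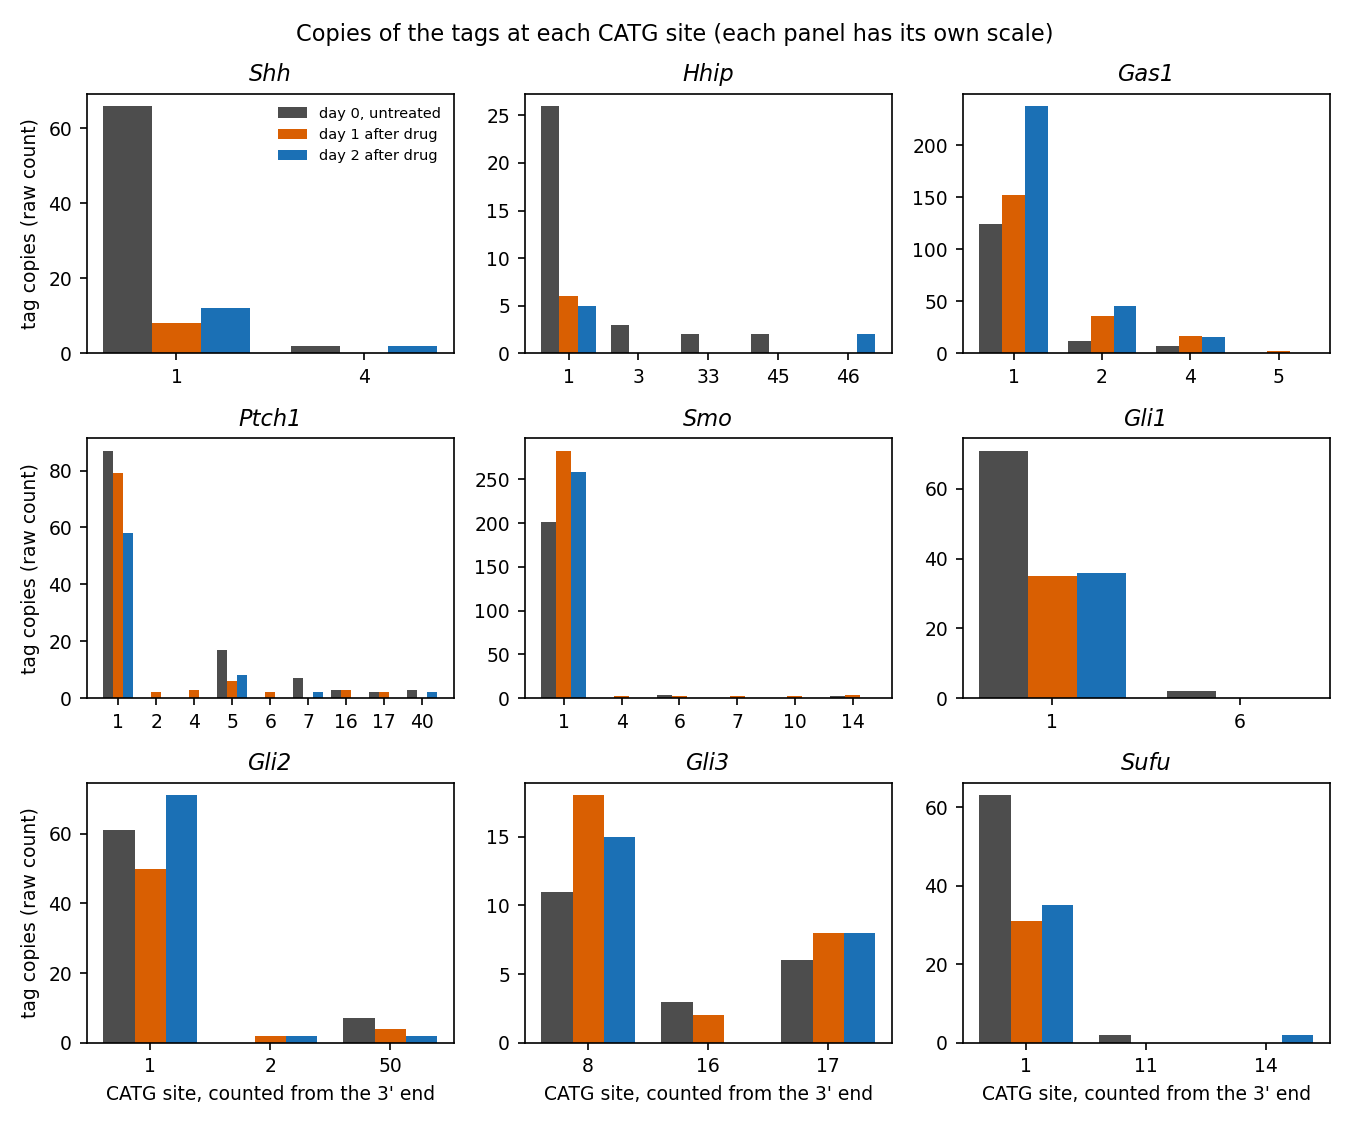
Raw tag copies (vertical axes, each panel with its own scale) at every CATG site at which a gene was counted (horizontal axes, numbered from the 3′ end), by day. Site 1 leads in 8 genes, Gli3 has none there, and Gas1 site 2 goes from 12 copies at day 0 to 36 and 46.

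Smo, the transducer below Ptch1, was the most abundant of the 9 at day 0, with 206, 294 and 258 tags (73.2, 109.1 and 94.9 CPM). Untreated skin was lowest, with an interval (63.6 to 84.0) below that of day 1 (97.0 to 122.3) and touching that of day 2 (83.7 to 107.2). The ratio of 0.57 (0.31 to 0.84) at day 1 had an adjusted p of 0.00013 by the exact test but was under 2-fold, and that of day 2 was 0.37 (0.10 to 0.64; adjusted p = 0.025). Gas1 tags per 100 Smo tags were 69.4 and 70.4 at days 0 and 1 and 116.3 at day 2.

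Gli1, an activator whose own transcription is a common readout of the pathway, was counted with 73, 35 and 36 tags (26.0, 13.0 and 13.2 CPM). Both treated libraries lay below the untreated interval of 20.3 to 32.6 CPM, and the intervals of the treated libraries nearly coincided (9.05 to 18.1 and 9.27 to 18.3). The log2 ratios of -0.99 (-1.62 to -0.40) and -0.96 (-1.59 to -0.38) were close to 2-fold without reaching it, and the exact test gave an adjusted p of 0.0053 and of 0.0051. Gli1 was therefore not called at either day.

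Gli2, the main activator of the response, was counted with 68, 56 and 75 tags (24.2, 20.8 and 27.6 CPM), and its 3 intervals overlapped. Its ratios were -0.22 (-0.75 to 0.31) and 0.19 (-0.30 to 0.69). Gli1 tags per 100 Gli2 tags were 107.4, 62.5 and 48.0. Gli2 also had 7, 4 and 2 copies of a tag at site 50, in the 5′ UTR of exon 1.

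Gli3, mainly a repressor when Hedgehog is absent, was the least abundant of the 9 at day 0, with 20, 28 and 23 tags (7.11, 10.4 and 8.46 CPM). Its intervals overlapped on all 3 days, and its ratios were 0.54 (-0.33 to 1.45) and 0.24 (-0.68 to 1.19). At this depth, a change of Gli3 of 2-fold or more upwards lies within both intervals.

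Sufu, which binds the Gli factors and keeps them inactive, was counted with 65, 31 and 37 tags (23.1, 11.5 and 13.6 CPM). Untreated skin was highest, and its interval (17.8 to 29.5) lay above that of day 1 (7.82 to 16.3) and overlapped that of day 2 (9.58 to 18.8). The log2 ratios were -0.99 (-1.67 to -0.37) and -0.76 (-1.39 to -0.16), with an adjusted p of 0.0091 and of 0.043 by the exact test, so Sufu was not called. Sufu has 2 further clusters with at most 3 tags in a library, which were not tested.

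The order of the 9 levels differed between the days. At day 0, Smo came first, followed by Gas1 and Ptch1, whose intervals overlapped, then by Gli1, Shh, Gli2 and Sufu, which could not be ordered within counting error, and last by Hhip and Gli3, whose intervals overlapped. Shh and Gli2 had the same number of tags in untreated skin. At days 1 and 2, Shh and Hhip were the lowest of the 9, although at day 2 the interval of Shh overlapped that of Gli3, and at day 2 the intervals of Gas1 and Smo overlapped at the top. These ranks assume that each transcript gives its tag equally well, which was not tested.

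**Figure D3:**
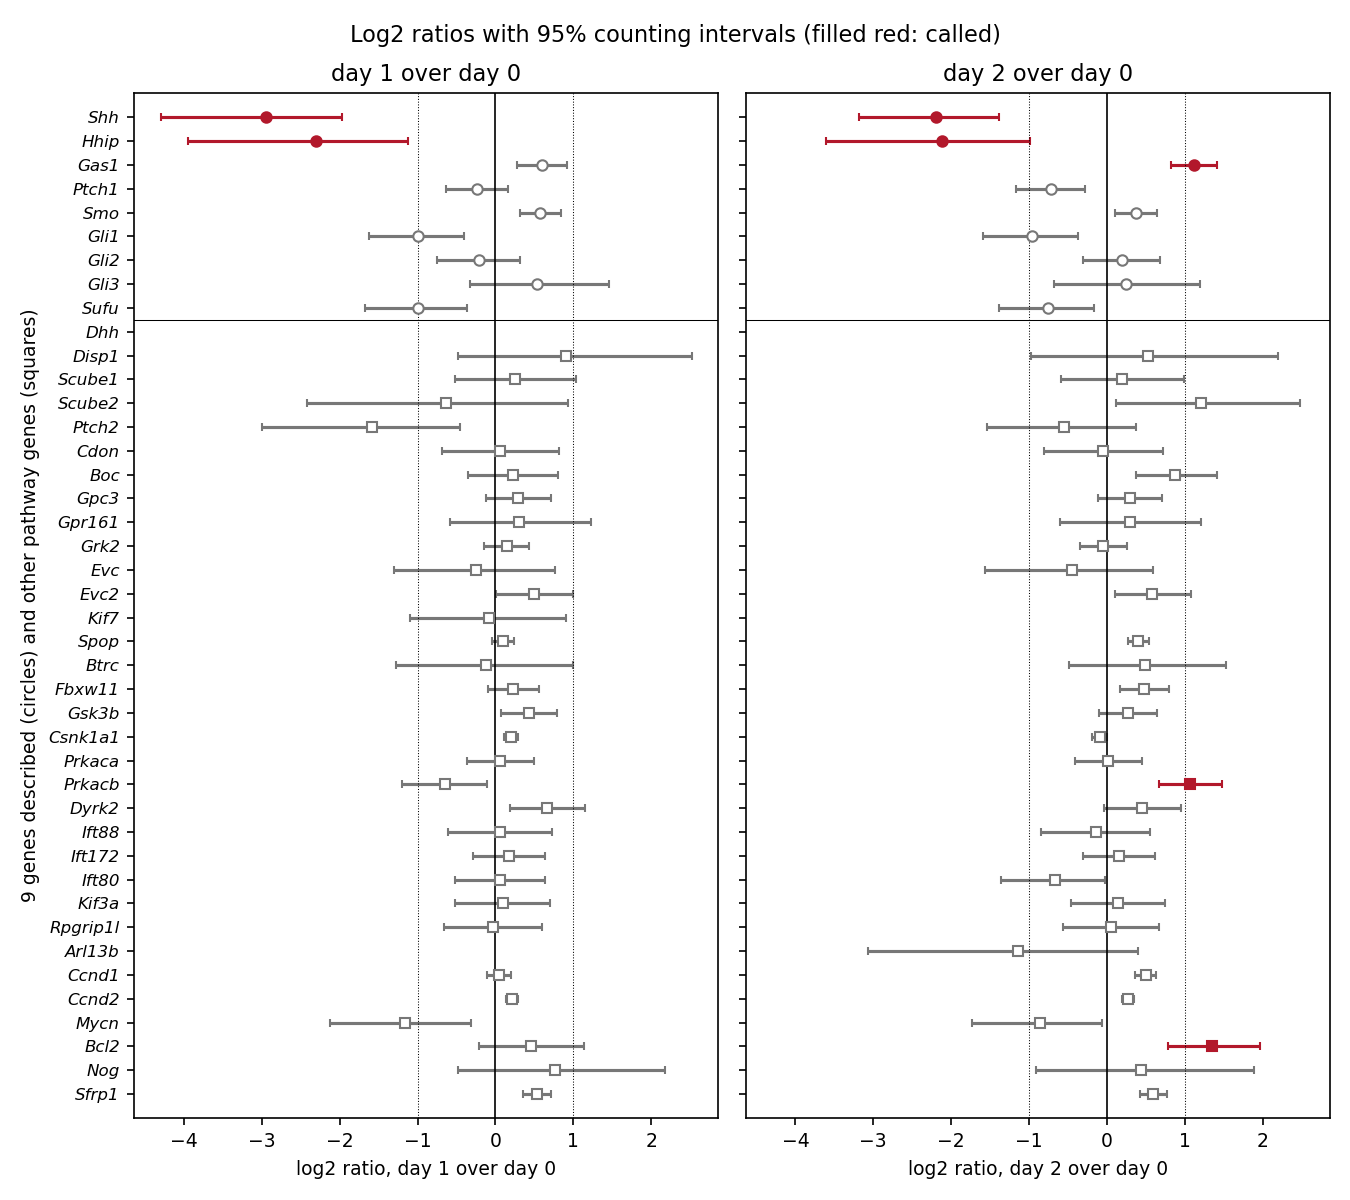
Log2 ratio to the untreated library, at day 1 (left) and day 2 (right), of the 9 genes (circles) and of other tested Hedgehog pathway genes (squares), with 95% counting intervals. Filled red symbols passed the threshold, dotted lines mark 2-fold, and a gene not listed in a library has no symbol. Shh and Hhip stand apart on the left side of both panels, and Gas1, Prkacb and Bcl2 pass on the right side at day 2.

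A wider set of 43 Hedgehog pathway genes was read beside them, of which 37 were listed in a library and 33 tested. At day 1, 0 were called in either direction and at day 2 against day 0, 3 were called higher and 1 lower, with the background shares given above. Between days 2 and 1, 1 was higher and 1 lower. The median log2 ratios of the 33 were 0.14, 0.27 and 0.05.

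Among the genes of ligands and ligand release, 4 of 8 were tested and 1 was called, Dhh, a ligand best known from Schwann cells and testis. Dhh was not listed at day 0 and then reached 12 tags on day 1 and 25 on day 2 (4.45 and 9.20 CPM). The tables list no tag below 2 copies, so its absence at day 0 need not mean 0 tags and no ratio is given. Counted as 0, day 0 was lower than day 2 with an adjusted p of 5.1e-07 by the exact test, and day 1 was not called (adjusted p = 0.0029). Most of its copies came from site 9 in the 3′ UTR, with 10 and 17 at days 1 and 2. The tag is printed because it stands for a second ligand whose counts went the other way from those of Shh.
Dhh, site 9, chr15:98893072-98893092, minus strand, exon 3 of 3: CATGggtgttccttacaatcc

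Site 1 of Dhh was read at day 2 alone, with 4 copies, and the tag at site 10 also matches the neighbouring gene Rhebl1. The secreted proteins Scube1 (28, 32 and 31 tags) and Scube2 (10, 6 and 23), which help release the ligand, were not called. Ihh, the third mammalian ligand, was not in the tables analysed here.

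Of the genes for reception of the ligand, 8 of 10 were tested and 0 were called. Grk2, a kinase that acts on Smo, had 191, 202 and 179 tags, and Gpc3, a proteoglycan that binds Hedgehog ligands, had 92, 108 and 109. The intervals of their log2 ratios to day 0 included 0 on both days.

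Among 10 genes that control the Gli factors, 9 were tested. Prkacb, a catalytic subunit of the kinase that marks Gli factors for cutting, had 77, 47 and 156 tags. It rose by 1.06 (0.66 to 1.48) at day 2 against day 0 and by 1.71 (1.24 to 2.22) against day 1, with an adjusted p of 7.8e-07 and of 4.8e-13 by the exact test. Kif7, a kinesin of the cilium tip that works with Sufu and Gli factors, was read 20 and 18 times on the first 2 days and was not listed at day 2. Counted as 0, it was called lower at day 2 against both earlier days (adjusted p = 2.6e-05 and 9.4e-05), and all its tags came from 1 site in the coding sequence. The most abundant genes of this group, Csnk1a1 (1789, 1968 and 1624 tags) and Spop (818, 840 and 1046), were not called.

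The 6 cilium genes were all tested and 0 were called. Ift172, a carrier protein of that transport, had 78, 84 and 84 tags, and Kif3a, a motor of cilium transport, had 47, 48 and 50. From a list of 9 genes known as Hedgehog targets in various tissues, 6 were tested. Bcl2, a survival factor, had 35, 46 and 87 tags and rose by 1.35 (0.78 to 1.97) at day 2 against day 0, with an adjusted p of 1.2e-05 by the exact test. The cyclins Ccnd1 (746, 737 and 1018 tags) and Ccnd2 (2485, 2752 and 2899) stayed under 2-fold. Of the 6, 5 had positive ratios to day 0 on both days and 1, Mycn (38, 16 and 20 tags), negative ones. The Mycn ratios were -1.16 (-2.13 to -0.31) at day 1 and -0.86 (-1.74 to -0.06) at day 2. Mycn was not called, with an adjusted p of 0.031 and of 0.1 by the exact test.

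For patterns like that of Shh, genes needed a mean of 5 CPM or more, tags in all 3 libraries and no clone or predicted-gene name. Among 8935 such genes, the 5 with day 1 and day 2 ratios nearest to those of Shh were Hhip, Tceanc, Marf1, Mpst and Rcc2. Hhip, with a mean of 5.51 CPM, passed this filter only through its day 0 level of 11.7 CPM. The same holds for Tceanc, with 33, 7 and 7 tags. Shh, as a neighbour of Hhip, also owed its mean mostly to day 0 (24.2 CPM against 2.97 and 5.15). Among genes with few tags, the filter thus favoured those that were high at day 0. A gene not listed after the drug could not be found this way. The distance over the pair of log2 ratios was 0.65 for Hhip and 0.85 to 1.21 for the others. Hhip lay nearest to Tceanc (0.21), then to Marf1, Mpst, Rcc2 and Shh. Rcc2, the most abundant of them, had 389, 110 and 94 tags. The likeness rests on 3 libraries that all ratios share.

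Marker lists for the cell types of skin moved in several directions beside these genes. Of all clusters, 1.43% were called higher and 1.38% lower at day 1. At day 2 the shares were 3.42% and 3.03% against day 0, and 1.82% and 1.09% against day 1. The summed level of 8 listed of 9 hair matrix markers was 2567, 2225 and 1020 CPM, and 0 were called at day 1 while Msx2, Krt35 and Wnt10b fell at day 2 (log2 ratios of -1.14, -2.09 and -2.40). Lef1 of that list had 2 tags at day 0 alone, and no cluster could be named Krt85. This need not mean that Krt85 tags were absent, since 4558 of 20595 clusters stayed unnamed. Of the 7 tested, 3 had positive and 4 negative ratios at day 1 (median -0.37), from -1.04 for Wnt10b to 0.59 for Dlx3, and 7 had negative ratios at day 2 (median -0.78). Krt35 made up 1411 CPM of the day 0 sum, so the sum mostly follows that gene. The 8 cycling cell markers summed to 563, 590 and 611 CPM with 0 called in either comparison with day 0. Of the 7 cycling cell markers tested, 3 had positive and 4 negative ratios on both days, with medians of -0.23 at day 1 and -0.08 at day 2. Inner root sheath markers summed to 41330, 60465 and 24042 CPM, and outer root sheath markers to 7876, 10482 and 10131 CPM. Krt72 of the inner root sheath list rose at day 1, and Krt25 and Gata3 fell at day 2. That list had 6 positive ratios and 1 negative at day 1, and 7 negative ratios at day 2 against day 0. Against day 1, Ovol1, Krt35, Krt25, Krt27, Krt28, Krt71, Krt72 and Tchh fell at day 2.

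On the dermal side, the sums were 65.4, 51.2 and 76.1 CPM for dermal papilla markers, and 3500, 2291 and 3803 CPM for dermal fibroblast markers. Vcan made up 31.6, 18.9 and 44.1 CPM of the papilla sums, so their change mostly follows that gene. The 5 papilla markers tested had 2 positive and 3 negative ratios at day 1, and 3 and 2 at day 2 against day 0. Of the papilla list, no cluster could be named Sox2, and Crabp1 had 2 tags at day 0 alone. All 8 fibroblast markers were tested. At day 1, 0 were called, with 1 positive and 7 negative ratios (median -0.46). At day 2 against day 0, 2 were called higher (Lum at 1.16 and Pdgfra at 1.31) and 0 lower, with 5 positive and 3 negative ratios (median 0.41), the lowest that of Col1a2 at -0.45. Col1a2 alone made up 1488 of the 3500 CPM at day 0. Markers of macrophages summed to 193, 182 and 409 CPM, of skeletal muscle to 8060, 12385 and 17231, of adipocytes to 4083, 2770 and 2440, of melanocytes to 420, 610 and 557, and of endothelium to 65.1, 62.0 and 99.7. Called higher at both days against day 0 were Fcgr1 of the macrophage list, Myh4, Actn3 and Mb of the muscle list and the melanocyte gene Pmel. The macrophage list had 2 positive and 4 negative ratios at day 1, and 5 and 1 at day 2 against day 0. The melanocyte list had 3 and 2 on both days, and all 7 muscle ratios were positive. For adipocytes these counts were 1 and 4 at day 1, and 2 and 3 at day 2. Fabp4 made up 3347 of the 4083 CPM of the adipocyte list at day 0. Tnnt3 of muscle was called at day 1 alone, and Mrc1, Ms4a7, Ckm and Mylpf at day 2 alone. Against day 1, Vcan, Dcn, Lum, Mrc1, Ms4a7 and Lyz2 rose at day 2. Fgf7 (9, 0 and 15 tags) was also called higher in that comparison, with its unlisted day 1 counted as 0, so no ratio is given. It was not called at day 2 against day 0. The part of these shifts in the ratios of Shh, Hhip, Gas1 and Dhh was not tested.

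**Figure D4:**
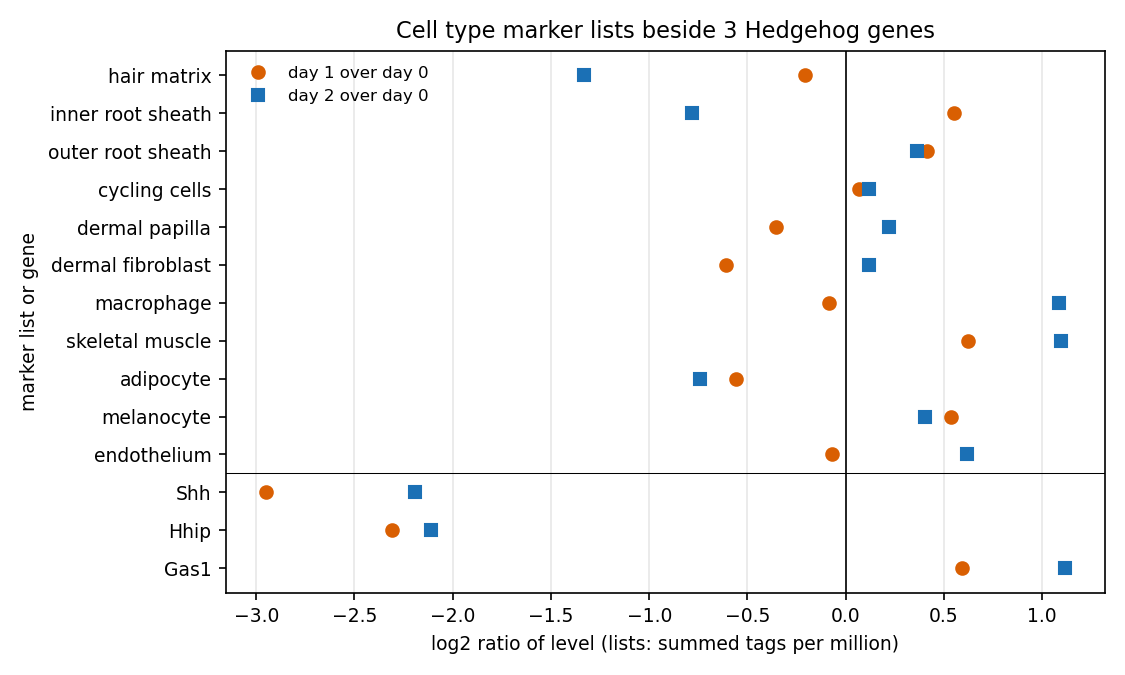
Log2 ratio to the untreated library of the summed level of each marker list (top) and of Shh, Hhip and Gas1 (bottom), for day 1 (circles) and day 2 (squares). Shh and Hhip lie below -2 on both days, and the hair matrix sum is at -0.21 at day 1 and -1.33 at day 2.

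The counts of calls depended on the threshold and on the spread assumed, and each is given beside the share of all clusters called in either direction by the same rule. When an adjusted p of 0.05 was enough, whatever the fold, 6 of the 9 genes were called at day 1, 7 at day 2 and 1 (Gas1) between days 2 and 1, against 21.8%, 28.3% and 20.1% of all clusters. By that rule 8, 10 and 8 of the 33 other pathway genes were called. With tags of the 3′-most site alone and the original threshold, Shh was the only one of the 9 called at day 1 and at day 2, and 0 were called between days 2 and 1, against 3.77%, 7.73% and 3.2% of 9699 clusters tested that way.

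Without replicates, the spread between animals could only be assumed. For this, edgeR's exact test was used at an adjusted p of 0.05 with no fold minimum, a looser threshold than the one above. With an assumed biological coefficient of variation of 0.2, Shh was the only one of the 9 genes called at day 1 and at day 2, with an adjusted p of 0.0026 and of 0.014, neither of which would pass 0.001. The share of all clusters called was then 0.21% at day 1, 1.77% at day 2 and 0.652% between days 2 and 1. With 0.4, 0 of the 9 were called, and 0%, 0.0434% and 0.0145% of all clusters were.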

How the data were processed

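Each deposited table lists, per the file headers, the raw tag count of every UniGene cluster, the tags assigned to it with their copy numbers and sites, and a TPM value, the count per 1000000 of all tags the authors kept. Tags were annotated by the sequencing centre against its mouse gene database, per the series design text, and the sources used here do not give the aligner and builds. The tables assign 45.3%, 47.1% and 46.5% of the kept tags. Counts were used as deposited. Clusters were named by exact match of tags to GENCODE M21 transcripts (at least 80% of matched and 50% of all tags from 1 gene), then by RefSeq accession: of 20595 clusters, 4558 stayed unnamed. A gene with several clusters was read in the one with most tags. TMM factors from edgeR 4.0.16 (R 4.3.3) were 1.03, 0.94 and 1.03. A cluster was tested if its tags over the 3 libraries came to at least 15. With no replicates, edgeR's quasi-likelihood test has no residual degrees of freedom, and a two-sided exact conditional binomial test (scipy 1.17.1) took its place. It was run on simulated Poisson counts without variation between animals. That simulation meets the assumptions of the test, so it cannot show how many false calls such variation would give. Log2 ratios carry a pseudocount of 0.5 tags, with Clopper-Pearson 95% intervals.

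The genes named are the 9 members, every other pathway gene called, up to 2 further genes per pathway list with the highest mean CPM, the 5 genes nearest to Shh and to Hhip, and any marker called. Rhebl1, Mycn, Dlx3, Col1a2, Fabp4 and markers at or near 0 were added after their values were seen. The members and lists were chosen with earlier results of these data known. Alternatives were other scalings (among them DESeq2 1.42.0 size factors), filters, tag choices, assumed variation and thresholds.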

Additional observations from a re-analysis of the deposited data

How the results depend on the processing

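The counts of the 9 genes called were the same under DESeq2 size factors, 3 other scalings, no filter on low counts, tags that match 1 gene exactly and a pseudocount of 1 tag. The scaling moves all ratios together: scaling by assigned tags put the median of all clusters at -0.15 for day 1 over day 0 and at 0.12 for day 2 over day 1. The split of all clusters called higher and lower at day 1 was 197 to 190 with TMM, 156 to 265 by kept tags, 128 to 338 by assigned tags and 158 to 255 by assigned tags outside hair and muscle genes. Between days 2 and 1 it was 251 to 150, and 347 to 106, 371 to 100 and 331 to 108. With tags of the 3′-most site alone, 1 of the 9 genes was called at day 1 and 1 at day 2 (Shh both times; 3.77% and 7.73% of all clusters), 2 pathway genes at day 2 against day 0, and the Hhip ratio of day 2 over day 1 turned from 0.19 to -0.27, neither past the test. With an assumed variation of 0.2 and the looser threshold of an adjusted p of 0.05, 1 of the 9 was called at day 1 and 1 at day 2 (0.21% and 1.77% of all clusters), and of the pathway genes 2 at day 2 and 1 between days 2 and 1 (0.652%); with 0.4 each of these counts was 0 (0%, 0.0434% and 0.0145%). When an adjusted p of 0.05 was enough, whatever the fold, 6 of the 9 were called at day 1 (2 higher, 4 lower), 7 at day 2 (2 higher, 5 lower) and 1 between days 2 and 1, and of the pathway genes 8, 10 and 8, against 21.8%, 28.3% and 20.1% of all clusters. Of 294 member ratios recomputed, 273 kept direction and call, 9 passed newly, 11 were lost and 1 turned. No paired analysis was possible because each group has 1 library. Counts of 6 to 8 tags, as for Shh at day 1 and Hhip after the drug, gave intervals of more than 2 on the log2 scale.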
